A study of Mus musculus with 3 samples.

Results

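The brush-border disaccharidases examined here are 4 genes, Sis, Lct, Mgam and Treh, taken by symbol from the 31053 genes listed in the deposited matrices. They were chosen by name and not by their values, though earlier results of these data were known. The cells were live cells sorted from the small intestine of male wild-type C57BL/6N mice, 12 weeks old, and cells of 3 mice were pooled. The intestine was cut into duodenum, jejunum and ileum, and 1 single-cell RNA library was made from each. Thus 3 libraries were available and no segment had a replicate. The libraries carried no transgene, treatment or deletion. The sort took all cells that excluded a dead-cell dye, so immune cells that lie within the epithelium were present beside the epithelial cells.

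Dietary starch and sugars reach the small intestine as short chains and disaccharides, which must be split into single sugars before uptake. The enzymes that do so sit on the brush border, the apical microvilli of absorptive enterocytes, and their genes are classical markers of enterocyte differentiation. Enterocytes are born in the crypt, move up the villus and are shed at its tip. Sucrase-isomaltase (Sis) splits sucrose and the branch points of starch fragments, and maltase-glucoamylase (Mgam) releases glucose from the ends of such fragments. Lactase (Lct) splits lactose into glucose and galactose, and trehalase (Treh) splits trehalose, a sugar of fungi and insects, into glucose.

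All members are protein-coding genes, placed here on GRCm38 with the GENCODE M21 annotation. Sis (ENSMUSG00000027790) lies at chr3:72888557-72967863 on the minus strand, and its longest coding transcript has 48 exons. Lct (ENSMUSG00000026354) lies at chr1:128284756-128328318 on the minus strand and has 17 exons. Mgam (ENSMUSG00000068587) lies at chr6:40628831-40769123 on the plus strand and has 48 exons. Treh (ENSMUSG00000032098) lies at chr9:44673233-44686305 on the plus strand and has 15 exons. The assay counts each transcript once at its 3′ end by a unique molecular identifier (UMI), so levels of different members were set side by side without division by length.

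The 250 bases before the annotated start of each gene are printed below because the members moved apart along the intestine and the villus. They are RefSeq promoter sequences of GRCm38.p6, read 5′ to 3′ on the strand of the gene, and all 4 members were found in that table. Capitals mark matches, on either strand, to short words known from intestinal factors. The word for CDX2 was TTTATG. That for GATA factors was AGATAA. The TATA word was TATAAA.

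Sis: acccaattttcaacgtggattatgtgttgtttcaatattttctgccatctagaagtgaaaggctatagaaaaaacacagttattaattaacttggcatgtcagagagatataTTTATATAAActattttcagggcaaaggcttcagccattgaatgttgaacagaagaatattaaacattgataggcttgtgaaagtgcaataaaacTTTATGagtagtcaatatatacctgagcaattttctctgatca

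Lct: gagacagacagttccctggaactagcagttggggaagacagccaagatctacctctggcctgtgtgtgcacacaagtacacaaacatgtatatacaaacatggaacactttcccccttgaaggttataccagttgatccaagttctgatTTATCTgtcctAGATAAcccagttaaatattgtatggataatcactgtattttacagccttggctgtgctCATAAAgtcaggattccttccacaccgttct

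Mgam: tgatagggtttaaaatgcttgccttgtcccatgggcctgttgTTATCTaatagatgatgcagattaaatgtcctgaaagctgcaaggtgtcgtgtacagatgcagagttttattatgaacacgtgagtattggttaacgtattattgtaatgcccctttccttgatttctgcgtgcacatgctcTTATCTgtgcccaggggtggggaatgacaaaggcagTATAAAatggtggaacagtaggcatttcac

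Treh: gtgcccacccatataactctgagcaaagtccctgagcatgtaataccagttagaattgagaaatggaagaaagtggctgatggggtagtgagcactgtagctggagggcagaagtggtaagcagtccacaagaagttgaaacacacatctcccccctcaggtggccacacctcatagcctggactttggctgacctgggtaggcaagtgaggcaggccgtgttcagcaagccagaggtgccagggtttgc

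These stretches are chr3:72967864-72968113 for Sis, chr1:128328319-128328568 for Lct, chr6:40628581-40628830 for Mgam and chr9:44672983-44673232 for Treh. The search covered 300 bases per gene, the printed 250 and the next 50. Sis held the CDX2 word at bases -43 to -38 from the start and an overlapping pair of TATA words between -138 and -129. Lct held the CDX2 word at -31 to -26 and the GATA word at -101 to -96 and at -90 to -85. Mgam held the GATA word at -208 to -203 and at -66 to -61, a TATA box at -30 to -25 and a further TATA word after the start. Treh held no match to any of these words. Such words are common. Among 32851 promoters of the same length, 11.9% held the CDX2 word, 11.2% the GATA word and 13.6% the TATA word. A match describes the letters only.

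Of 27235 barcodes, 16686 passed the limits of the study on UMIs, genes and mitochondrial UMIs. The 3 libraries differed in quality, with a median of 12424, 11737 and 5536 UMIs per kept cell and a median mitochondrial share of 27.1%, 27.2% and 11.1%, in the order duodenum, jejunum, ileum. The kept barcodes shared between libraries numbered 4, 12 and 5 for the 3 pairs. Clusters were named from marker genes, giving 10520 enterocytes, 1109 early enterocytes, 751 goblet cells, 301 tuft cells, 171 enteroendocrine cells (EECs), 221 intestinal stem and proliferating cells (ISC/proliferating cells) and 1228 T cells, besides smaller classes and 1568 unnamed cells. The enterocyte class also held 261 cells led by interferon-response genes. A level is given as the UMIs of a gene in every 10000 UMIs of the cells added together, and the ranges in brackets are exact Poisson intervals at 95%, which hold counting error alone. Because each segment has 1 library, segments were compared as values without a test.

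In enterocytes, the members fell into 2 patterns along the intestine. Sis and Mgam were high in the duodenum and much lower beyond it, whereas Lct and Treh were similar in the duodenum and the jejunum and lower in the ileum. The level of Sis was 31.1 (31.0 to 31.3) in the duodenum, 7.99 (7.91 to 8.08) in the jejunum and 3.96 (3.89 to 4.03) in the ileum. Sis was thus 3.90-fold lower in the jejunum than in the duodenum and a further 2.02-fold lower in the ileum. Mgam stood at 25.8 (25.6 to 25.9), 6.23 (6.15 to 6.30) and 5.77 (5.69 to 5.85) in the same order. Its drop of 4.14-fold lay between the duodenum and the jejunum, and the ileum was only 1.08-fold below the jejunum. In enterocytes with at most 20% mitochondrial UMIs this last difference turned, with a log2 ratio of 0.37 in place of -0.11. The level of Lct was 9.57 (9.47 to 9.66) in the duodenum, 10.1 (10.0 to 10.2) in the jejunum and 1.81 (1.76 to 1.86) in the ileum, a drop of 5.60-fold between the last 2 segments. Treh was the lowest member in the duodenum and the jejunum, at 3.74 (3.68 to 3.80) and 3.87 (3.82 to 3.93), and stood at 1.84 (1.80 to 1.89) in the ileum. The ileal levels of Treh and Lct, 1.84 and 1.81, had overlapping intervals. Between duodenum and jejunum the log2 ratio of Treh was 0.05, and it was -0.20 with at most 20% mitochondrial UMIs. Mitochondrial share and depth moved with the segment, and their part in these differences was not tested.

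The members' mix is free of the scaling of libraries, since shares are taken within the same cells. It holds no absolute level, so it need not follow the 2 patterns above. The share of Lct was alike in the duodenum and the ileum, though its level was 5.29-fold lower in the ileum. In duodenal enterocytes, Sis made up 44.3% of the UMIs of the 4 genes, Mgam 36.7%, Lct 13.6% and Treh 5.33%. Jejunal enterocytes had Lct as the leading member with 35.9%, before Sis with 28.3%, Mgam with 22.1% and Treh with 13.7%. Mgam led in the ileum with 43.1%, and Sis followed with 29.6%, Treh with 13.8% and Lct with 13.5%. The leading member was thus a different one in each segment, but with early enterocytes added Sis led in the jejunum too (36.1% against 31.4% for Lct).

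Single enterocytes differed in the members they carried. With every cell thinned to 800 UMIs, so that depth was equal, Sis was found in 68.0% of duodenal, 29.0% of jejunal and 22.8% of ileal enterocytes. T cells, which should lack the gene, gave 28.6%, 7.34% and 2.95% in the same libraries. Before thinning, Sis was found in 94.6%, 79.3% and 63.6% of enterocytes at median depths of 12210, 12053 and 6334 UMIs. The untouched T cells gave 68.6%, 20.2% and 15.4% at median depths of 4089, 4624 and 4244 UMIs. For Mgam, the thinned shares of enterocytes were 77.6%, 32.1% and 34.7%, against 20.0%, 0.917% and 3.69% of T cells. Lct reached 46.6%, 45.8% and 12.0% of enterocytes, against 2.86%, 0.917% and 0.646% of T cells. Treh reached 23.0%, 24.3% and 12.8%, against 8.57%, 1.83% and 0.923%. In duodenal enterocytes, the level of Sis ran from 1.70 at the 10th percentile of cells to 58.8 at the 90th, and that of Mgam from 7.14 to 41.9.

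The duodenal T cells call for care, because they were only 35 cells. Their summed level of Sis was 11.3, but 4 of these cells held 169 of its 214 UMIs, and the other cells stood at 3.31. In the jejunum and the ileum the T cells stood at 0.727 and 0.687 for Sis. The part of free RNA in these levels was not tested.

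**Figure D1:**
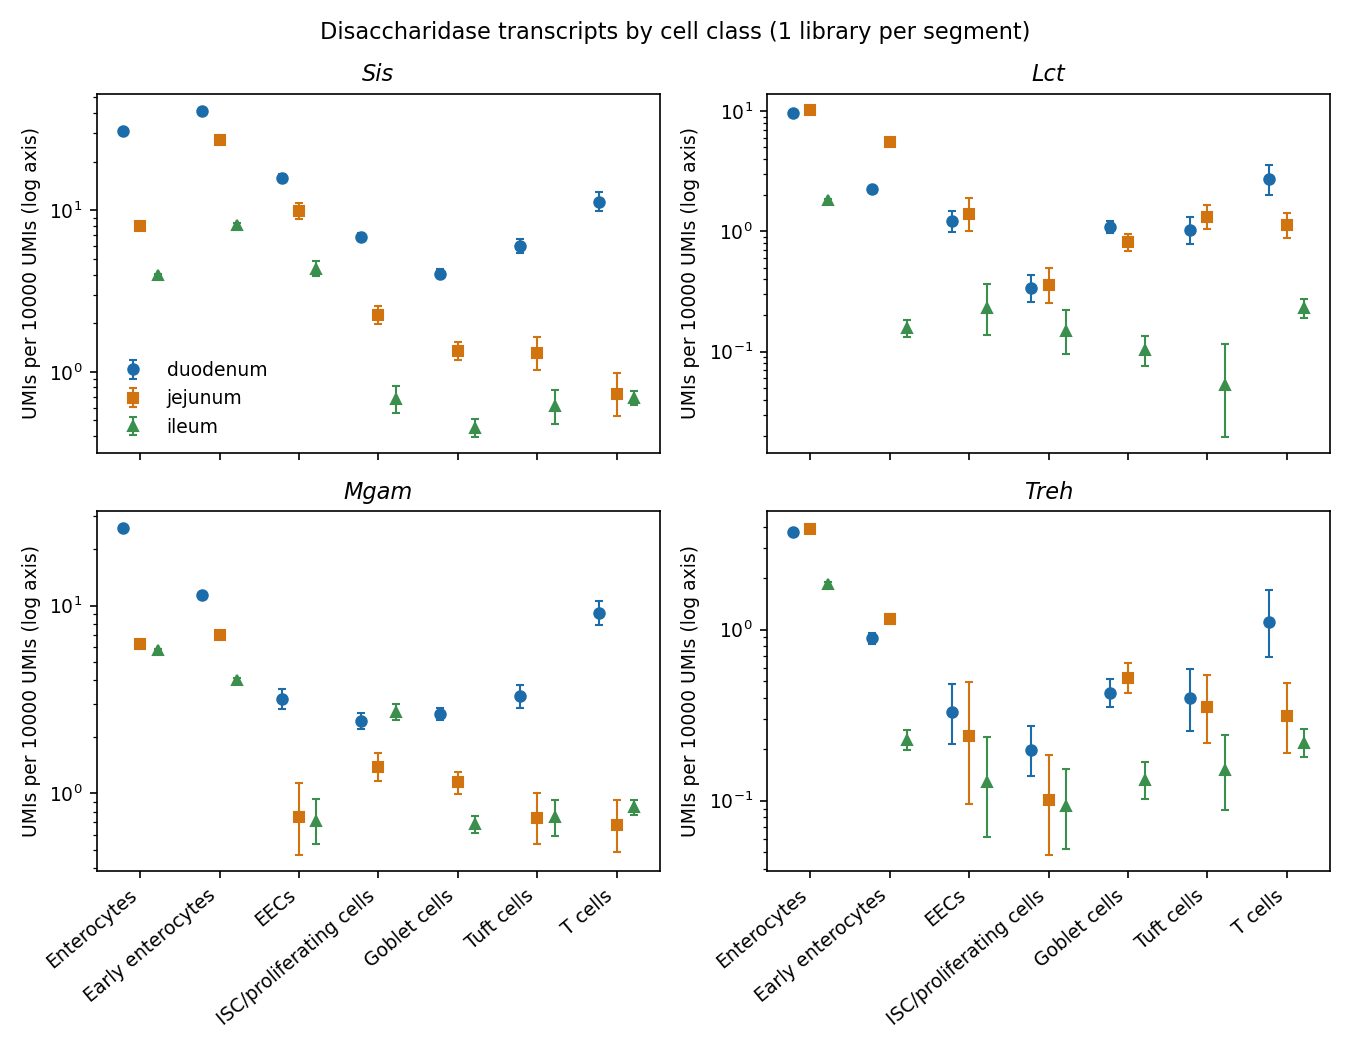
Level of each member in 7 cell classes, in UMIs per 10000 UMIs on a log axis. Points are the 3 libraries (1 per segment) and bars are 95% Poisson intervals for counting error. Sis in EECs lies near enterocytes in the jejunum and the ileum (9.91 against 7.99 and 4.36 against 3.96), while the other members lie far below.

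Cell classes were compared on UMIs summed per library and class, with the library as a block, in edgeR's quasi-likelihood test over 12747 genes. All p-values are adjusted by the Benjamini-Hochberg method over these genes. They rest on how class differences varied across 3 libraries of pooled cells, each a different segment, and hold no spread between mice. Fold changes are relative to a median over all genes between -0.06 and -0.14 on the log2 scale in the 6 contrasts with enterocytes.

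Early enterocytes, the cells at the start of enterocyte differentiation, already carried Sis but less Lct and Treh than enterocytes. The level of Sis in them was 41.5, 27.2 and 8.11 in the duodenum, the jejunum and the ileum, above the enterocytes of each library. The difference did not pass the test (log2 fold change 0.83 ± 0.45 SE, adjusted p = 0.151). Lct stood at 2.23, 5.50 and 0.156 in early enterocytes and was lower than in enterocytes by a log2 fold change of -2.22 ± 0.55 (adjusted p = 0.00183). Treh stood at 0.889, 1.15 and 0.227 and was lower by -2.58 ± 0.38 (adjusted p = 4.23e-06). Mgam lay at 11.4, 6.95 and 3.99, and its log2 fold change of -0.76 ± 0.51 did not pass (adjusted p = 0.252). Of the 4 members, 2 were thus lower and 2 did not pass, where 39.6% of all genes tested were called. Sis alone made up 74.0%, 66.6% and 65.0% of the members' UMIs in early enterocytes of the 3 segments. Sis in early enterocytes depended on the clustering: at a resolution of 1.2 its log2 fold change was -0.51 (adjusted p = 0.389), and without TMM scaling it was 1.19 (adjusted p = 0.0393).

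In goblet cells, tuft cells, ISC/proliferating cells and T cells, all 4 members were lower than in enterocytes. Goblet cells, which secrete mucus, had log2 fold changes between -2.94 (Sis) and -3.71 (Lct), and 37.6% of genes were called in that contrast. Tuft cells, rare chemosensory cells, had values between -3.20 (Sis) and -4.15 (Lct), with 45.3% of genes called. ISC/proliferating cells ranged from -2.72 (Mgam) to -5.36 (Treh), with 61.7% called, and T cells from -3.19 (Sis) to -3.71 (Treh), with 61.4% called. The weakest of these 16 calls had an adjusted p of 9.81e-05. With calls this common among all genes, the count of members says little. As a share of the enterocyte level, all 4 members in goblet and tuft cells lay below T cells in the duodenum and the ileum. Sis stood there at 13.0% and 11.4% in goblet, 19.3% and 15.4% in tuft and 36.4% and 17.4% in T cells. In the jejunum they lay above T cells (Sis 16.8%, 16.4% and 9.10%), save Lct in goblet cells (8.01% against 11.1%). The part of free RNA in these sizes was not tested. Mgam in ileal ISC/proliferating cells lay at 2.71 (2.46 to 2.98) against 0.678 (0.557 to 0.818) for Sis in the same cells. Mgam made up 74.7% of the members' UMIs there, against 24.7% and 33.7% in the ISC/proliferating cells of the duodenum and the jejunum.

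To follow the members along the villus, enterocytes and early enterocytes of each library were ranked by a score of landmark genes, 8 of the villus tip minus 6 of the villus bottom, and cut into 5 equal zones. None of the members is in the score. The zones are ranges of a continuous score and not cell types, and 26.9% of the cells lay within 0.1 SD of a cut. Zone 1, the bottom end, held 1047 of the 1109 early enterocytes. The level of the tip list rose from 8.77 to 194.0 in the duodenum, from 13.9 to 206.0 in the jejunum and from 12.2 to 204.8 in the ileum between zones 1 and 5.

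Sis fell from zone to zone in every segment. In the duodenum its level was 48.0, 43.4, 32.7, 17.1 and 3.95 from zone 1 to zone 5. In the jejunum it was 25.6, 12.6, 4.69, 1.87 and 0.653, and in the ileum 8.99, 6.65, 3.85, 1.60 and 0.612. In the jejunum and the ileum, zone 5 was thus near the T cell levels of 0.727 and 0.687. Zone 5 was below zone 1 by a log2 fold change of -3.73 ± 0.33 (edgeR, adjusted p = 8.62e-07), and zone 3 was below zone 1 by -1.31 ± 0.30 (adjusted p = 0.00372), a call lost with at most 20% mitochondrial UMIs (-1.05, adjusted p = 0.102). At equal depth the share of cells with Sis dropped from 94.2% to 24.1% in the duodenum, from 70.3% to 4.20% in the jejunum and from 48.8% to 5.16% in the ileum.

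Treh took another course, with its highest level between the ends in all 3 libraries. Its level was 1.89, 3.57, 4.03, 4.20 and 3.22 in the duodenum, 2.33, 4.44, 4.50, 3.86 and 2.60 in the jejunum, and 0.611, 1.93, 2.24, 1.90 and 1.45 in the ileum. Zone 1 was the lowest zone in all 3 libraries. Zone 3 exceeded zone 1 by a log2 fold change of 1.44 ± 0.18 (adjusted p = 5.1e-05) and zone 5 exceeded it by 1.29 ± 0.18 (adjusted p = 3.48e-05), while zones 5 and 3 did not pass (-0.15 ± 0.18, adjusted p = 0.511).

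Lct and Mgam, too, had their highest levels between the ends in most libraries. Lct was at 5.28, 10.1, 10.9, 10.2 and 5.53 in the duodenum, at 9.32, 13.8, 10.6, 7.98 and 4.51 in the jejunum, and at 0.612, 2.49, 2.76, 1.30 and 0.863 in the ileum. It rose from zone 1 to zone 3 (1.24 ± 0.28, adjusted p = 0.00325) and fell from zone 3 to zone 5 (-0.89 ± 0.28, adjusted p = 0.0231), so that the ends did not pass against each other (0.35 ± 0.28, adjusted p = 0.277). Mgam was at 18.0, 27.5, 29.4, 27.1 and 14.0 in the duodenum, at 8.90, 8.74, 5.93, 4.03 and 2.00 in the jejunum, and at 5.00, 6.82, 6.21, 5.40 and 3.90 in the ileum. It thus declined from the first zone on in the jejunum, unlike in the other libraries, and none of its contrasts passed (adjusted p from 0.0861 to 0.467). The median of all genes between zones 5 and 1 was -0.08, and without TMM scaling it was -0.68, where Lct turned to -0.25 and Mgam passed (-0.98, adjusted p = 0.0119). Over 11169 genes, 70.5% were called between zones 5 and 1, 47.9% between zones 3 and 1 and 39.6% between zones 5 and 3.

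**Figure D2:**
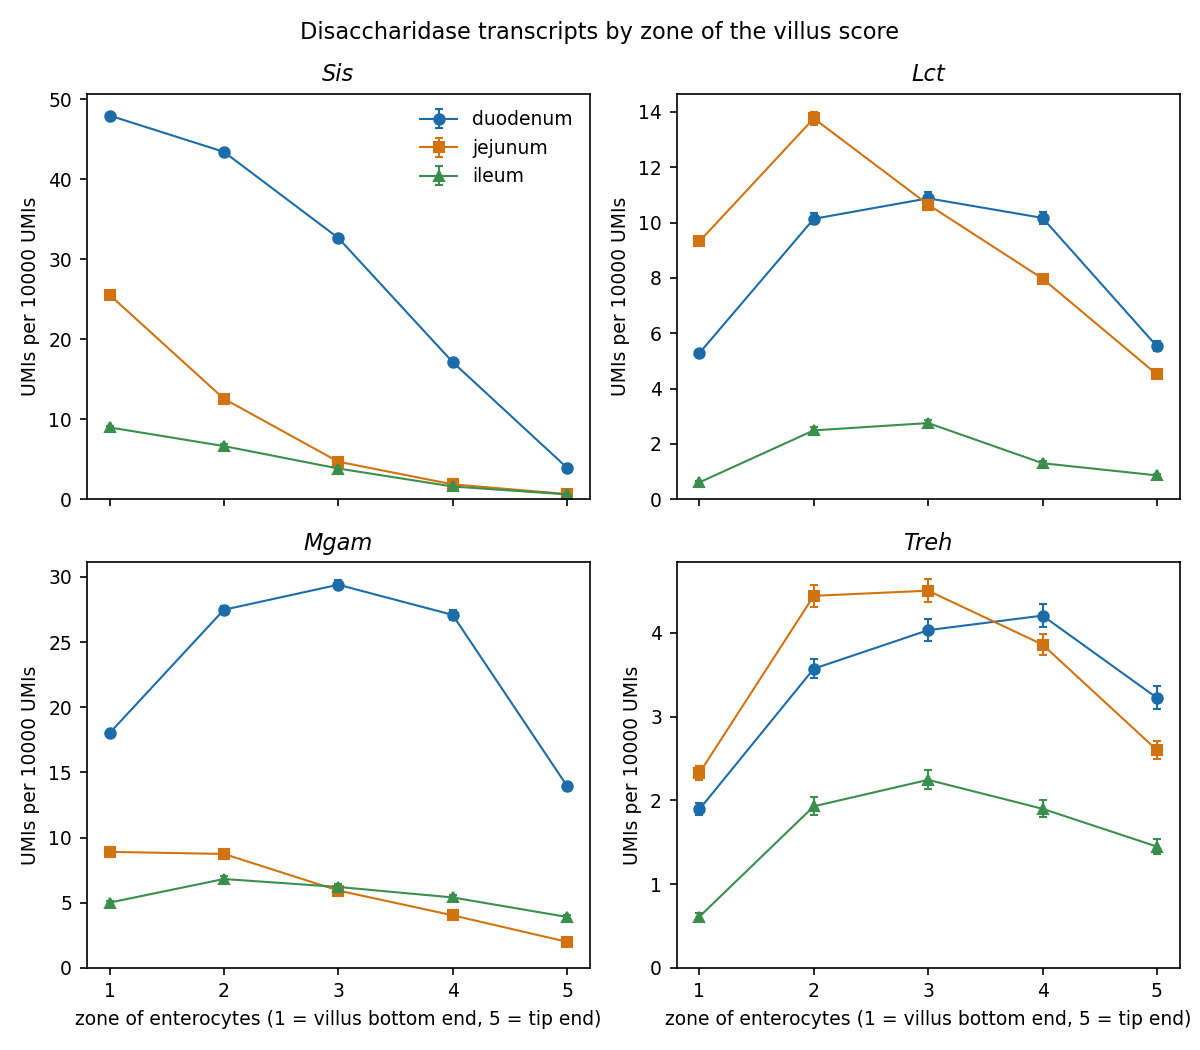
Level of each member, in UMIs per 10000 UMIs, in 5 equal zones of enterocytes ranked by a villus score, for the 3 libraries. Bars are 95% Poisson intervals for counting error. Sis declines throughout (48.0 to 3.95 in the duodenum), and Treh is lowest in zone 1.

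Parts of the gradients of Lct, Mgam and Treh changed when early enterocytes were left out and the zones were cut anew. With enterocytes alone, Sis kept its decline, but the log2 fold change of Lct from zone 1 to zone 3 was 0.11 (adjusted p = 0.673) and that from zone 1 to zone 5 was -0.69 (adjusted p = 0.00318), and the latter of Treh was 0.21 (adjusted p = 0.0751). The rise of Treh from zone 1 to zone 3 passed in all 12 alternatives, this one included. Its log2 fold change there ranged from 0.37 to 2.26, with an adjusted p of at most 0.0162. The median depth fell from 18033 UMIs in zone 1 to 8600 in zone 5 in the duodenum, from 18958 to 11028 in the jejunum and from 12985 to 7562 in the ileum, and its part in the gradients was not tested.

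The mix of enzymes also differed between zones. Sis was 65.6% of the members' UMIs in zone 1 of the duodenum and 14.8% in zone 5. The same share fell from 55.4% to 6.69% in the jejunum and from 59.1% to 8.96% in the ileum. At the tip end, Mgam led in the duodenum with 52.4% and in the ileum with 57.2%, and Lct led in the jejunum with 46.2%. Treh rose from 2.59% to 12.1%, from 5.05% to 26.6% and from 4.02% to 21.2% in the 3 segments.

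**Figure D3:**
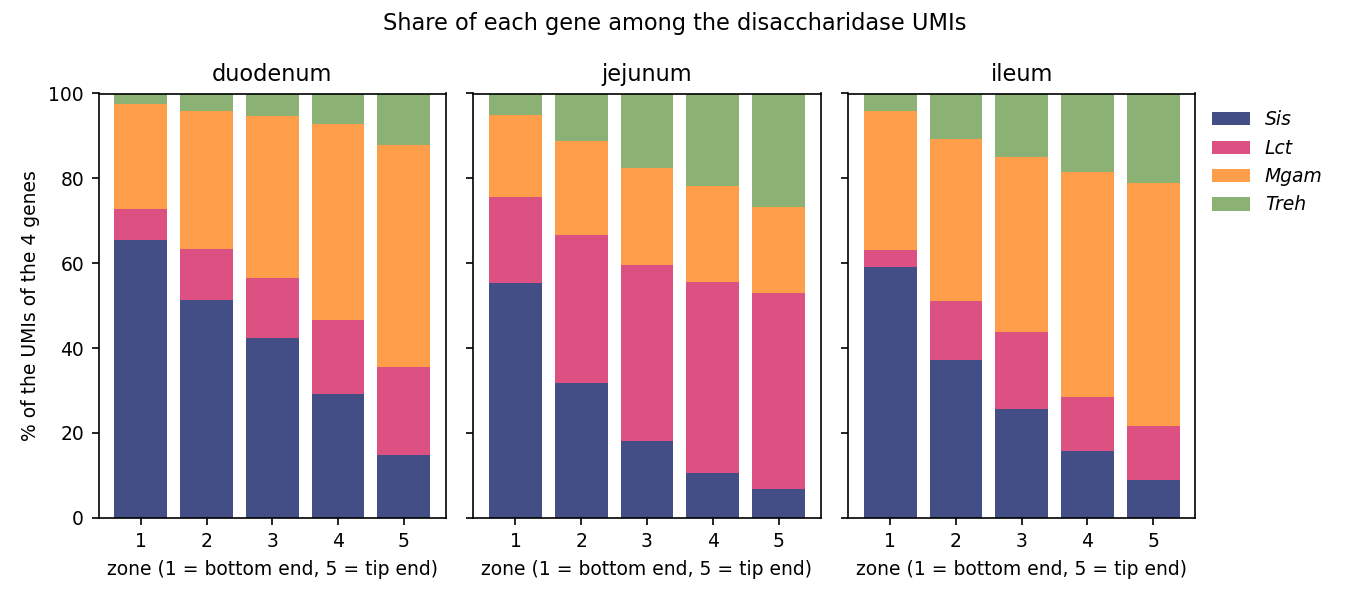
Share of each member, in % of the UMIs of the 4 genes, by zone in the duodenum, the jejunum and the ileum. Sis is the leading member in zone 1 of every segment (55.4% to 65.6%) and the smallest or the last but 1 in zone 5.

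EECs, the hormone-secreting cells of the epithelium, are known to share their origin with enterocytes and to have microvilli. Among the 171 cells of their cluster, 168 held at least 1 UMI of Neurod1, a transcription factor of EECs, or of Chga, a protein of their secretory granules. In these 168 cells, of which the duodenum gave 52, the jejunum 24 and the ileum 92, the level of Sis was 15.9 (15.1 to 16.9), 9.91 (8.80 to 11.1) and 4.37 (3.92 to 4.86) in this order. Lct was at 1.22, 1.40 and 0.231, Mgam at 3.20, 0.749 and 0.705, and Treh at 0.330, 0.238 and 0.128. Sis was thus well above the other members in every library, with 77.1%, 80.6% and 80.2% of the members' UMIs over the EEC cluster.

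Relative to enterocytes of the same library, the EEC cluster had 51.2%, 124% and 110% of the level of Sis. Lct had 12.7%, 13.8% and 12.7%, Mgam 12.4%, 12.0% and 12.4%, and Treh 8.80%, 6.15% and 6.93%. The summed level of 11 enterocyte marker genes in EECs was 13.9%, 12.6% and 9.75% of that in enterocytes, which is close to the values of Lct and Mgam and far below those of Sis. In the test, Lct (-3.86 ± 0.62, adjusted p = 6.04e-06), Mgam (-3.89 ± 0.59, adjusted p = 2.85e-06) and Treh (-4.65 ± 0.47, adjusted p = 4.39e-09) were lower in EECs than in enterocytes on the log2 scale, where 53.2% of genes were called. Sis did not pass (-0.92 ± 0.46, adjusted p = 0.0956). Under the 14 alternatives its log2 fold change stayed between -1.29 and -0.05 with an adjusted p from 0.00434 to 0.943, and it passed in 5 of them. Without TMM scaling the median of all genes in this contrast moved from -0.06 to 0.78, and Sis to -0.05.

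Against the other secretory cells, Sis was higher in EECs. The levels in goblet cells were 4.06, 1.35 and 0.451, and those in tuft cells were 6.01, 1.31 and 0.611, so the EECs of each library exceeded both. The log2 fold change was 2.02 ± 0.48 against goblet cells (adjusted p = 0.00146, 33.2% of genes called) and 2.29 ± 0.49 against tuft cells (adjusted p = 0.000736, 26.4% called). It passed in all 14 alternatives of each contrast, with an adjusted p of at most 0.0437. Lct and Mgam did not pass against goblet cells (-0.15 ± 0.59, adjusted p = 0.905, with a change of sign to 0.64 without TMM scaling, and -0.92 ± 0.55, adjusted p = 0.22) or tuft cells (0.29 ± 0.63, adjusted p = 0.808, and -0.25 ± 0.56, adjusted p = 0.82). Treh was lower than in goblet cells (-1.32 ± 0.48, adjusted p = 0.0331), a call lost when any 1 library was left out (adjusted p from 0.0773 to 0.109), and it did not pass against tuft cells (-0.55 ± 0.53, adjusted p = 0.5). These 2 contrasts were chosen after the levels had been seen. Outside the jejunum, goblet and tuft cells lay below T cells in every member, as a share of the enterocyte level.

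Sis was spread over more EECs than the other members. Sis was found in 131 of the 168 EECs, and 56 of these held no UMI of the other members. In 75 EECs Sis was found with another member, 10 held another member without Sis and 27 held none. In the EEC cluster of the duodenum, the 6 cells with most UMIs of a gene held 35.6% of the 1258 UMIs of Sis. The same share was 88.5% for Lct (96 UMIs), 78.2% for Mgam (252 UMIs) and 84.6% for Treh (26 UMIs). In the ileum, 10 of 94 cells held 40.5% of the 341 Sis UMIs and all UMIs of Lct (18) and Treh (10). A count of 10 UMIs lies in 10 cells at most, so this ileal share of Treh was fixed by its count. Lct had few UMIs there as well. At 800 UMIs per cell, Sis was found in 55.8%, 37.5% and 28.3% of EECs, and in 28.6%, 7.34% and 2.95% of T cells of the same libraries.

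When the EECs richest in enterocyte marker UMIs (10% of them) were set aside, the level of Sis in the remaining 151 cells was 15.03, 10.1 and 4.45, beside 15.9, 9.91 and 4.37 in all of them. The enterocyte markers fell from a summed level of 115.9 to 45.7 over the 3 libraries. Lct dropped to 0.279, 0.299 and 0.0585, Mgam to 1.01, 0.257 and 0.483, and Treh to 0.0880, 0.0856 and 0.0293. The level of Sis was thus about as large without the cells with most enterocyte marker UMIs, whereas most of the Lct and Treh UMIs lay in those 17 cells.

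**Figure D4:**
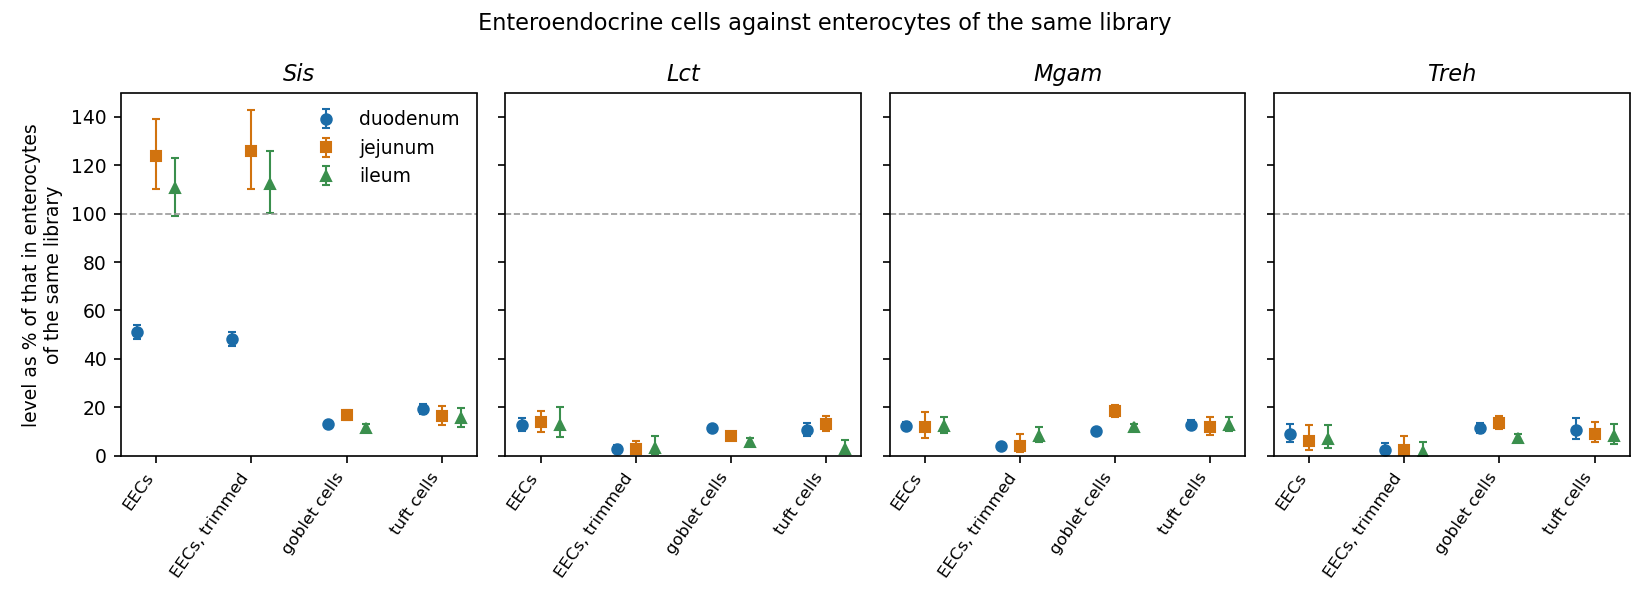
Level of each member in EECs, in EECs trimmed of the 10% with most enterocyte marker UMIs, in goblet cells and in tuft cells, as a percentage of the level in enterocytes of the same library (dashed line, 100%). Bars are 95% Poisson intervals of the upper value. Sis in EECs (51.2% to 124%) lies above the other members in EECs (6.15% to 13.8%).

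EEC subtypes, assigned by hormone thresholds, differed in their level of Sis. EC cells, which make serotonin, had levels of 19.5 (22 cells), 14.5 (6 cells) and 6.07 (17 cells) in the 3 libraries. N cells, which make neurotensin, had 15.5 in the jejunum (7 cells) and 4.86 in the ileum (53 cells). I cells, which make cholecystokinin, had 22.6 in the duodenum (9 cells). K cells, which make GIP, had 10.3, 5.79 and 2.31 (7, 6 and 7 cells). L cells, which make GLP-1, had 3.04 in the ileum (7 cells). D cells, which make somatostatin, had 8.42 in the duodenum (6 cells), with Sis found in 4 of 8 D cells over the libraries and in 0 of 8 at 800 UMIs per cell. K cells were below EC cells in each library, and enterocyte markers and depth also differed. The markers were higher in K than in EC cells of the duodenum (102.6 and 79.9). They were lower in K cells of the jejunum (49.3 and 220.2) and the ileum (38.0 and 299.0). The median depth of K and EC cells was 19724 and 13849 UMIs in the duodenum. It was 18835 and 3348 UMIs in the jejunum and 12205 and 2797 UMIs in the ileum. The part of markers and depth in the difference was not tested, and with so few cells no subtype was tested. Neurod1 or Chga was also found in 711 kept barcodes outside the EEC cluster, 423 of them enterocytes and 145 early enterocytes. Their enterocyte markers stood at 682.3, against 115.9 in the EECs, and they were not counted as EECs.

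Single sugars released by the members are taken up by SGLT1 (Slc5a1, sodium-coupled uptake of glucose and galactose), GLUT5 (Slc2a5, uptake of fructose) and GLUT2 (Slc2a2, the basolateral exit of sugars). All 3 carriers were lower in zone 5 than in zone 1, where 70.5% of all genes were called and 36.7% were lower. Slc5a1 changed by -1.24 ± 0.31 (adjusted p = 0.00326), Slc2a5 by -2.33 ± 0.24 (adjusted p = 2.48e-06) and Slc2a2 by -3.34 ± 0.60 (adjusted p = 0.000279) on the log2 scale. Zone 3 against zone 1 did not pass for any of them. The level of Slc5a1 in enterocytes was 20.0, 6.91 and 5.51 along the 3 segments, a course like that of Mgam. Slc2a2 fell from 5.33 to 1.31 and 0.0971. In EECs all 3 carriers were lower than in enterocytes, as were 26.5% of all genes (53.2% called), with log2 fold changes of -2.69 for Slc5a1, -1.53 for Slc2a5 and -3.98 for Slc2a2, though that of Slc2a5 was -0.67 and not called without TMM scaling (adjusted p = 0.154). Slc2a5 was higher in EECs than in goblet cells (1.58 ± 0.45, adjusted p = 0.00808).

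In fructose breakdown, Khk (ketohexokinase, the entry step) and Tkfc (triokinase) were lower in zone 5 than in zone 1, with log2 fold changes of -1.86 and -1.73. In galactose breakdown, Galk1 (galactokinase) and Galt were lower at the tip end (-3.28 and -0.65). Galm (the mutarotase that acts on galactose) did not pass (-0.31), but was called lower without TMM scaling (-0.90). Galk1 was also higher in early enterocytes than in enterocytes (1.98) while Lct, whose product feeds this pathway, was lower there.

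The 7 regulators of enterocyte genes reported here, all transcription factors, went in both directions along the villus, where 70.5% of all genes were called. In zone 5 against zone 1, 4 were higher (Hnf4a by 2.10, Gata6 by 1.21, Gata4 by 1.18 and Gata5 by 0.68) and 3 were lower (Cdx1 by -1.15, Hnf4g by -1.12 and Cdx2 by -0.53). Without TMM scaling Gata5 lost its call (0.09), and the other 6 calls held. The level of Gata4 in enterocytes was 0.677, 0.4996 and 0.140 in the duodenum, the jejunum and the ileum. In EECs, 5 of the 7 were lower than in enterocytes and none was higher, beside 53.2% of all genes called and 26.5% lower, but without TMM scaling only Gata4, Gata5 and Hnf4a were lower and Cdx1 was higher (0.75, adjusted p = 0.0489). The 2 that did not pass were Cdx1 (-0.11 ± 0.32, adjusted p = 0.814) and Cdx2 (-0.19 ± 0.30, adjusted p = 0.64).

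Across the 19 sums of epithelial cells by library and class, the members did not follow each other equally. Pearson's r of log2 levels was 0.91 for Lct with Treh, 0.81 for Mgam with Treh, 0.78 for Sis with Mgam, 0.73 for Sis with Lct, 0.73 for Lct with Mgam and 0.64 for Sis with Treh. Among 3435 genes, those most like Sis were Gpd1 (0.95), Bpnt1 (0.94) and Cyp2c65 (0.94). Lct was most like Leap2 (0.96), Cyp2b10 (0.96) and Ephx2 (0.96), Mgam most like Sult1b1 (0.94), Galm (0.92) and Abcg5 (0.92), and Treh was like Xdh (0.99) and Pcyt1a (0.97). These sums share libraries and enterocyte RNA, so the values describe the sums only.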

How the data were processed

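Single-cell libraries of 3 pooled male wild-type mice, 12 weeks old, were made with the 10x Genomics 3′ kit v3. The authors counted UMIs with Cell Ranger 3.0.2 on GRCm38/mm10, per the labels, and the deposited values are raw counts per gene and barcode. Barcodes were kept within the limits of the study, which are 800 to 50000 for UMIs, 200 to 6000 for genes and no more than 40% for the mitochondrial share. Seurat 5.3.0 integrated the libraries on 2000 variable genes without Vil1 and the members (30 principal components, resolution 0.8). Clusters were named by marker lists. The naming rule was changed after the clusters were seen, because the first rule named neither EECs nor ISC/proliferating cells, and the first rule is among the alternatives. Scrublet (scanpy 1.11.5) called 0, 0 and 146 doublets, which were left in, so their removal tests little in 2 libraries.

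UMIs summed per library and class, or zone, in sums of at least 10 cells were compared by the quasi-likelihood test of edgeR 4.0.16 after filterByExpr and TMM scaling, in a model with a block for the library. The threshold was a Benjamini-Hochberg adjusted p of 0.05. With the library as a block, p-values measure only how class or zone differences varied across the 3 libraries. These are 3 segments of pooled mice without a replicate, so no spread between mice is measured. Cells were not replicates. Intervals are exact Poisson or binomial at 95%. Likeness used log2(level + 0.1) over genes at 1 or more UMI per 10000 in any sum. The zone score was the mean z-score of 8 tip genes minus that of 6 bottom genes within a library. Named genes were the members, 4 lists of related genes and, for each member, the 3 most alike, of which some are not reported here. The members and lists were chosen with earlier results of these data known. Alternatives covered clustering, cell and gene filters, scaling, zones, DESeq2 1.42.0, doublets and leaving out each library. The edgeR comparisons were also run on simulated counts. These held no difference between segments other than depth and scaling, so they cannot show how the test fares where segments differ.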

Additional observations from a re-analysis of the deposited data

Results flagged for a closer look

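The barcodes removed by the limits on UMIs, genes and mitochondrial UMIs, which entered no comparison, also held the members. Their levels in the duodenum, the jejunum and the ileum were 18.6, 6.67 and 2.95 UMIs per 10000 UMIs for Sis, 5.49, 5.24 and 0.444 for Lct, 14.5, 4.67 and 2.53 for Mgam, and 1.87, 2.04 and 0.420 for Treh. All 12 levels exceeded the limit that a count of 0 would allow, which was certain with 501 or more UMIs of each member. The part of free RNA in them was not tested. Most removed barcodes were over the mitochondrial limit, 5129 of 5246 in the duodenum.

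Some changes went opposite ways in different segments, in each case beyond the counting intervals, and these differences between segments were not tested. Between zones 5 and 1, the log2 ratio of Lct was 0.066 in duodenal, -1.05 in jejunal and 0.50 in ileal cells. Between zones 3 and 1, that of Mgam was 0.71, -0.59 and 0.31 in the same order. In early enterocytes against enterocytes, Mgam gave -1.17, 0.16 and -0.53. In all 3 cases the jejunum was the segment on its own side.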

How the results depend on the processing

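Of 608 alternative fits of the 44 tested log2 fold changes, 572 kept both direction and side of the threshold, 12 lost the call, 15 gained one and 9 changed sign. The lower levels in goblet cells, tuft cells, ISC/proliferating cells and T cells, the higher Sis in EECs than in goblet and tuft cells and the fall of Sis from zone 1 to zone 5 kept direction and call throughout. The cause of the changes below was not tested. They concern log2 fold changes. The first naming rule, an alternative added after the clusters were seen, gave 28 of the values and kept each call, but no value for EECs or ISC/proliferating cells.

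Against enterocytes at a resolution of 1.2, early enterocytes gave -0.51 for Sis and -1.99 for Mgam, and EECs gave -1.29 for Sis. Sis in EECs was also called lower with libraries merged (-1.16), with no gene filter (-0.93), with sums of at least 30 cells (-1.19) and with each contrast fitted on its 2 classes (-1.06). That last fit also called Mgam lower in early enterocytes than in enterocytes (-0.80) and in EECs than in goblet cells (-0.74).

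Without TMM, Sis in early enterocytes was called higher (1.19), and EECs against goblet cells gave 0.64 for Lct and -0.53 for Treh. In DESeq2 these were 0.12 and -1.13. Treh against goblet cells was -1.47 with at most 20% mitochondrial UMIs and ranged from -1.46 to -1.07 without 1 library, and it passed in none of these 6 fits. Lct in that contrast ranged from -0.31 to 0.18 without 1 library, and Mgam against tuft cells was 0.19 with libraries merged.

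For zone 5 against zone 1, leaving out TMM gave -0.25 for Lct and -0.98 for Mgam, and for zone 5 against zone 3 it gave -1.05 for Mgam and -0.58 for Treh. Zones of enterocytes alone gave -0.69 for Lct, -0.95 for Mgam and 0.21 for Treh between zones 5 and 1, 0.11 for Lct and -0.29 for Mgam between zones 3 and 1, and -0.66 for Mgam between zones 5 and 3. With at most 20% mitochondrial UMIs, Lct between zones 5 and 1 was 1.00 and Sis between zones 3 and 1 was -1.05, which did not pass. With 3 zones, Lct between the tip and the middle zone was -0.70. Without 1 library, Lct between zones 5 and 3 ranged from -1.02 to -0.69 and lost its call without the duodenum or the jejunum, and Mgam between zones 5 and 1 ranged from -0.75 to 0.19, the latter without the jejunum.

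The segment ratios in enterocytes moved by more than their counting intervals in the settings given here. Jejunum against duodenum gave these log2 ratios: Sis -1.84, Lct 0.0166, Mgam -2.41 and Treh -0.20 with at most 20% mitochondrial UMIs, Sis -1.60, Lct 0.19, Mgam -1.87 and Treh 0.10 with early enterocytes added, Sis -1.89 with libraries merged, and Sis -1.45, Lct 0.39, Mgam -1.58 and Treh 0.44 with the T cell level subtracted. Ileum against jejunum gave these log2 ratios: Sis -1.26, Lct -2.73, Mgam -0.35 and Treh -1.32 without mitochondrial genes, Sis -1.32 and Mgam 0.37 with at most 20% mitochondrial UMIs, Sis -1.14, Lct -2.73, Mgam -0.24 and Treh -1.25 with early enterocytes added, Sis -1.57, Lct -2.32 and Mgam -0.19 with libraries merged, and Sis -1.15, Mgam -0.17 and Treh -1.13 with the T cell level subtracted.

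Shares of the members' UMIs also moved. In the duodenum they were, in %, Sis 44.6, Lct 14.5, Mgam 34.1 and Treh 6.72 with at most 20% mitochondrial UMIs, and Sis 48.7, Lct 12.2, Mgam 34.3 and Treh 4.77 with early enterocytes added. In the jejunum they were, in %, Sis 31.6, Lct 37.3, Mgam 16.3 and Treh 14.8 with at most 20% mitochondrial UMIs, and Sis 36.1, Lct 31.4, Mgam 21.1 and Treh 11.5 with early enterocytes added. In the ileum they were, in %, Sis 26.8, Mgam 44.8 and Treh 14.6 with at most 20% mitochondrial UMIs, and Sis 37.5, Lct 10.8, Mgam 40.6 and Treh 11.1 with early enterocytes added.

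Over the 3 libraries, the level in EECs was 10.1 for Sis, 0.833 for Lct, 1.77 for Mgam and 0.231 for Treh. It was Sis 10.9 and Lct 1.07 in barcodes with both Neurod1 and Chga, Sis 12.0, Lct 3.59, Mgam 6.26 and Treh 1.33 in any kept barcode with either gene, Lct 0.188, Mgam 0.675 and Treh 0.0625 without the 10% of EECs richest in enterocyte markers, and Sis 4.94, Lct -0.584, Mgam -2.57 and Treh -0.38 after subtraction of the T cell level of each library. Among the 35 duodenal T cells that entered this subtraction, 4 held 79.0% of the UMIs of Sis, 82.4% of Lct, 82.7% of Mgam and 90.5% of Treh. Outside the duodenum, the EEC cluster also lay below T cells in part, as percentages of the enterocyte level. That held for Treh (6.15% against 8.11% in the jejunum, 6.93% against 11.8% in the ileum) and ileal Mgam (12.4% against 14.7%). Jejunal Lct (13.8% against 11.1%) and Mgam (12.0% against 10.9%) lay above, and ileal Lct was level (12.7% in both). The other duodenal T cells stood at 3.31, 0.685, 2.24 and 0.151, below all duodenal EECs together (15.9, 1.22, 3.20 and 0.330). Without the 6 of 53 cells with most UMIs of each gene, the duodenal EEC cluster stood at 12.7, 0.168, 0.866 and 0.0623. On that footing only Sis was above those T cells.

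The class and zone fits held the library as a block throughout. No paired analysis was possible because of 1 library a segment where segments were compared. Cell number limits the EEC values, since the jejunum had 24 EECs with 7 UMIs of Treh.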

Other observations

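Enterocyte clusters differed in their mix of members within a library. The cluster led by interferon-response genes drew 184 of its 261 cells from the duodenum, and these had a level of 40.3 for Sis and 30.7 for Mgam, beside 31.1 and 25.8 in all duodenal enterocytes. The ileal cells of a cluster led by Marcksl1 (361 of its 429 cells) stood at 0.779 for Sis and 0.0649 for Lct, beside 3.96 and 1.81 in all ileal enterocytes. In the unnamed cluster led by Gm26917, Sis was at 37.9, 16.9 and 8.44 and Mgam at 19.2, 9.43 and 5.65 from duodenum to ileum, and enterocytes had 31.1, 7.99 and 3.96 for Sis. The members were not among the genes used to cluster the cells. These clusters were picked for mention after their values had been seen.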
